A study of Mus musculus with 6 samples.

Results

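The genes described here encode the subunits of the proteasome, its regulatory particle and its activators, together with the interferon-inducible subunits of the immunoproteasome. They were chosen by name alone, as every row of the deposited gene table whose symbol is Psma, Psmb, Psmc, Psmd or Psme followed by a number. The rule found 43 of 34665 rows. Of these, 41 passed the filter on low counts and were tested, and Psma8 and Psmb11 did not. RNA was measured by bulk sequencing in tumours of B16, a mouse melanoma cell line, from hosts or cells labelled with the genotype WT. RT_ICI tumours received radiation together with an immune checkpoint inhibitor (n = 3, replicates 1, 2 and 4). ICI tumours received the checkpoint inhibitor without radiation (n = 3, replicates 1, 2 and 3). Both groups therefore share the inhibitor, and no untreated tumour is part of the comparison. The sources used here give neither the inhibitor's target nor the dose of radiation, the harvest time, the age of the animals or the position of a tumour relative to the irradiated field. The comparison asks which proteasome transcripts were at other levels in tumours given radiation as well as the inhibitor.

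The proteasome degrades proteins that carry ubiquitin chains. Its barrel-shaped core, the 20S particle, is built from outer rings of alpha subunits (Psma genes) and inner rings of beta subunits (Psmb genes), and the beta subunits encoded by Psmb5, Psmb6 and Psmb7 cut the protein chain. The 19S regulatory particle (Psmc and Psmd genes) binds the ubiquitin chain, unfolds the substrate and opens the core. Under interferon, cells make Psmb8, Psmb9 and Psmb10, which take the places of Psmb5, Psmb6 and Psmb7 in newly assembled cores, and the PA28 activator from Psme1 and Psme2. The resulting immunoproteasome is known for supplying peptides to class I molecules, which tumour cells need in order to be seen by CD8 T cells.

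The libraries held 32855257, 45624013 and 22543721 counts in RT_ICI replicates 1, 2 and 4, and 32201558, 37980103 and 43109047 counts in ICI replicates 1, 2 and 3. Levels are given as CPM, the count of a gene relative to the size of its library, scaled by TMM, a method that equalises libraries on the bulk of their genes. RT_ICI replicate 1 stands apart. It had counts in 29748 rows of the table, against 22763 to 24891 rows in the other 5 libraries, and results that rest on it are given with and without it. Melanocyte markers chosen to check the label (Mlana, Pmel, Tyr, Tyrp1, Dct, Mitf and Sox10) summed to between 10072 and 14379 CPM in RT_ICI and between 13340 and 15180 CPM in ICI, and none was at 0. On average Mlana, Tyr and Sox10 were higher in RT_ICI and the others lower. Only Mlana passed an adjusted p under 0.05 (0.0376 in edgeR). The counts of 14 leukocyte markers summed to between 16.2 and 51.5 CPM in RT_ICI and between 34.9 and 103 CPM in ICI. In such bulk samples, fewer cells of a type and less RNA per cell cannot be told apart.

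Few proteasome genes were called between RT_ICI and ICI tumours, which does not show that the others were at equal levels. Of the 41 tested genes, Psmb6 was higher in RT_ICI, Psmd5 was lower, and 39 did not pass an adjusted p under 0.05 in edgeR's quasi-likelihood test. The 2 called genes are 4.88% of those tested, while 9.18% of all 16924 tested genes were called (4.46% higher and 4.72% lower). The median log2 fold change (RT_ICI over ICI) was -0.08 over the proteasome genes and 0.014 over all tested genes. At an adjusted p under 0.1 there were 6 proteasome genes, 4 of them lower, against 21.5% of all tested genes. At an unadjusted p under 0.05 there were 10 proteasome genes, and 31.5% of all tested genes were past that level. The values of RT_ICI and ICI did not overlap for 12 of the 41 genes, or 29.3%, against 37.2% of all tested genes. With upper-quartile in place of TMM scaling, 67.8% of all called genes were higher, against 48.6% with TMM, and Psmd5 was no longer called (edgeR adjusted p = 0.063). In the fit without RT_ICI replicate 1, 11 proteasome genes were called lower and 1 higher, 29.3% against 17.7% of all tested genes. The median log2 fold change of the proteasome genes was then -0.26.

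**Figure D1:**
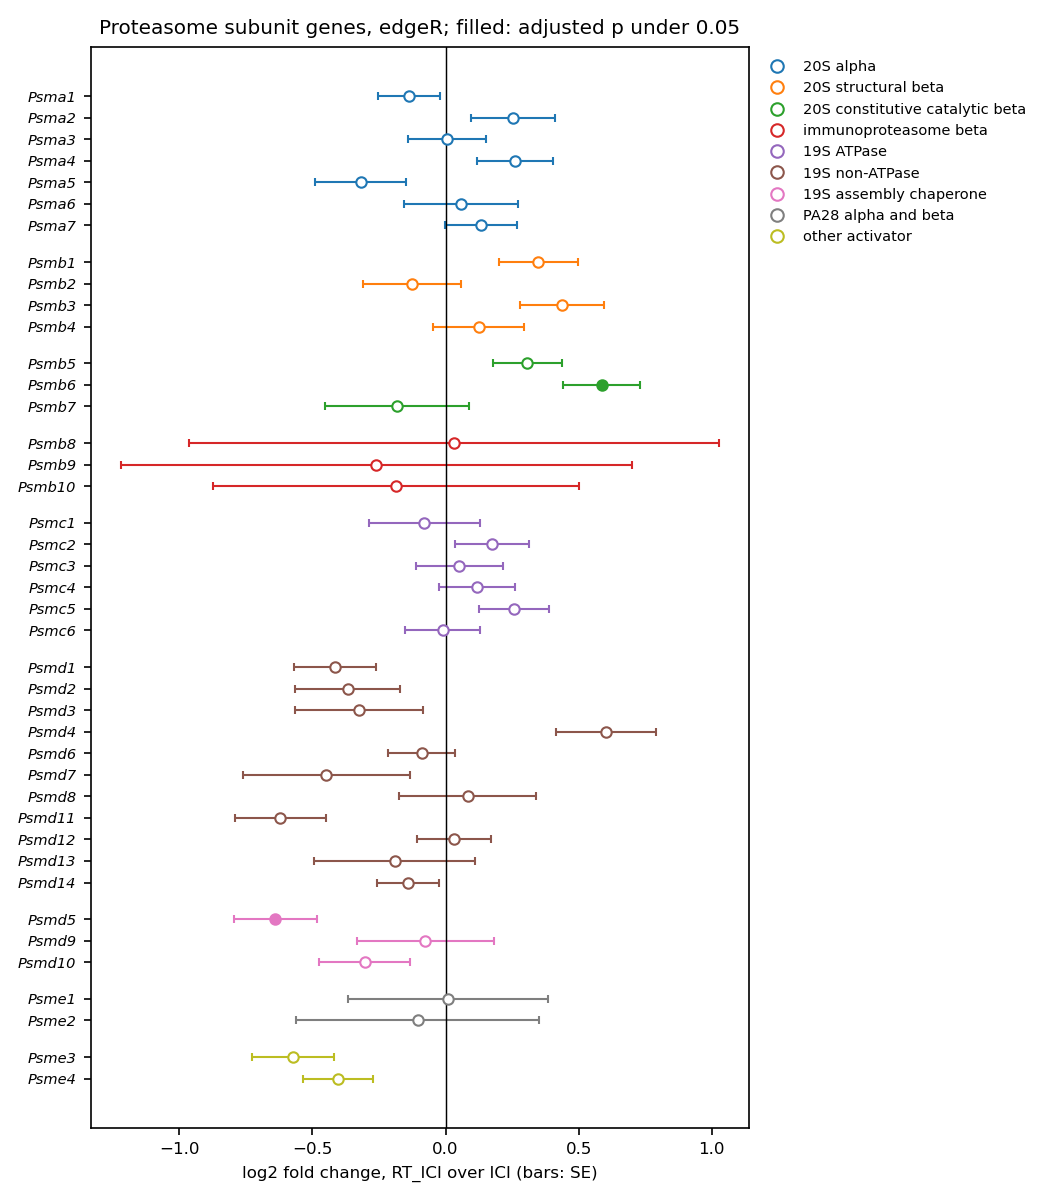
Log2 fold change, RT_ICI over ICI, of the 41 tested proteasome genes with its standard error, by subunit class (colour); filled points have an adjusted p under 0.05 in edgeR. Psmb6 and Psmd5 are the filled points, and the longest bars are those of Psmb8, Psmb9 and Psmb10, whose standard errors run between 0.69 and 0.995.

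Sequence before the RefSeq start of 3 genes is shown because the results turn on them. They are the gene called higher, the gene called lower, and the immunoproteasome gene whose level varied most within RT_ICI. All are RefSeq sequence on GRCm38.p6, 5′ to 3′ on the gene's own strand, and capitals mark a searched motif. For Psmb6 the whole 250 bases before the start are shown (chr11:70525107-70525356, plus strand). The capitals, TGACGGAGC, begin 9 bases before the start and match the antioxidant response element, written TGANNNNGC, a motif that the transcription factors Nfe2l1 and Nfe2l2 bind. For Psmd5 the 145 bases before the start are shown (chr2:34870963-34871107, minus strand), with no match in them. They are the longest run of the 250 bases that is free of annotated exons. In the GENCODE annotation Psmd5 reaches further upstream, to base 34874968, so this stretch lies within the annotated gene. For Psmb8 the 29 bases around its gamma-activated sequence are shown (chr17:34198088-34198116, plus strand). That motif, TTCNNNGAA, is known from promoters that answer to interferon gamma, and the match begins 97 bases before the start. In the GENCODE annotation Psmb8 begins further upstream, at base 34197721, so this stretch too lies within the annotated gene. It was kept short because an exon is annotated there.
Psmb6: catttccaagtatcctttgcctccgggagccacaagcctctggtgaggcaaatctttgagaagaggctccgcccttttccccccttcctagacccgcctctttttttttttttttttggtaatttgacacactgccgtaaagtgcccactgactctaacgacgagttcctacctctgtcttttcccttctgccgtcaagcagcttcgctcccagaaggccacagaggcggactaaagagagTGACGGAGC
Psmd5: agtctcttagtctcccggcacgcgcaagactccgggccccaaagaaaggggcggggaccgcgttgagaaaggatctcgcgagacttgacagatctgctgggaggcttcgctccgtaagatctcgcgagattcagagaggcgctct
Psmb8: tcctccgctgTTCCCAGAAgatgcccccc

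Promoter entries were found for 36 of the 43 genes, and 3 motifs were searched on both strands of the 250 bases before each start. The antioxidant response element was present in 14 of the 36, or 38.9%, and in 38.7% of the 27025 genes of the table. Psmb6 and Psmd5, which moved in opposite directions, both had one, that of Psmd5 lying further upstream than the stretch shown. The gamma-activated sequence was found in Psmb8 alone, 2.78% of the 36, against 8.13% of all genes. The interferon-stimulated response element was found in Psmb3, Psmd4 and Psmd9, or 8.33%, against 3.46% of all genes. A match is a description of these letters and not a site of binding.

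The core particle genes that encode the outer alpha rings had log2 fold changes between -0.32 and 0.26. Among the 7 of them (Psma1 to Psma7), which gate the entrance to the core, none was called, and the median log2 fold change was 0.06. Psma4 lay at the upper end, with 116.2, 142.5 and 119.3 CPM in RT_ICI, against 92.0, 113.4 and 109.9 CPM in ICI. The groups did not overlap for Psma4, but its log2 fold change of 0.26 (SE 0.14) had an adjusted p of 0.241 in edgeR. Psma5 lay at the lower end, with 64.3, 46.5 and 42.7 CPM in RT_ICI, against 58.4, 66.5 and 66.5 CPM in ICI. Its log2 fold change was -0.32 (SE 0.17, edgeR adjusted p = 0.232). RT_ICI replicate 1 was near the ICI libraries for this gene and the other RT_ICI libraries were below them, and without RT_ICI replicate 1 Psma5 was called lower, at -0.52 (edgeR adjusted p = 0.0319).

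The structural beta subunits, Psmb1 to Psmb4, help to build the inner rings and have no active site. None of the 4 was called, and their median log2 fold change was 0.24. Psmb3 had 173.4, 216.3 and 190.9 CPM in RT_ICI, against 123.3, 166.9 and 138.6 CPM in ICI. Every RT_ICI library lay above every ICI library, and the log2 fold change was 0.44 (SE 0.16, edgeR adjusted p = 0.106). Psmb1 likewise did not overlap, at 0.35 (SE 0.15, edgeR adjusted p = 0.152). Psmb2 had the lowest value of the class, -0.13 (SE 0.18, edgeR adjusted p = 0.666), and its libraries overlapped.

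The standard catalytic subunits held the only gene of the module called higher. Psmb6, which encodes beta1, the caspase-like subunit, had 151.3, 154.2 and 149.1 CPM in RT_ICI, against 86.4, 118.5 and 97.7 CPM in ICI. The RT_ICI libraries were almost at one level and all above the highest ICI library. The means were 152 ± 2.54 CPM in RT_ICI and 101 ± 16.3 CPM in ICI (SD, n = 3 each). The log2 fold change was 0.59 (SE 0.14, edgeR adjusted p = 0.0455). Psmb6 stayed called without RT_ICI replicate 1 (adjusted p = 0.0393 in edgeR) and without ICI replicate 2 (0.0498). It was not called by edgeR when ICI replicate 1 (adjusted p = 0.183), ICI replicate 3 (0.138), RT_ICI replicate 2 (0.119) or RT_ICI replicate 4 (0.104) was left out, with log2 fold changes between 0.48 and 0.71 over all such fits. Those 4 fits called few genes of any kind: 0% of all tested genes without ICI replicate 1, 0.0115% without ICI replicate 3, 0% without RT_ICI replicate 2 and 0.549% without RT_ICI replicate 4.

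Psmb5, encoding beta5, the chymotrypsin-like subunit that bortezomib inhibits, had 131.6, 136.7 and 125.3 CPM in RT_ICI, against 93.1, 116.6 and 108.3 CPM in ICI. The groups did not overlap, but the log2 fold change of 0.31 (SE 0.13) did not pass, with an edgeR adjusted p of 0.149. Psmb7, encoding beta2, the trypsin-like subunit, had 118.6, 54.6 and 68.2 CPM in RT_ICI, against 82.7, 90.2 and 101.0 CPM in ICI. RT_ICI replicate 1 was the highest of all libraries for Psmb7 and the other RT_ICI libraries were the lowest. The log2 fold change was -0.18 (SE 0.27, edgeR adjusted p = 0.668) with all libraries, and -0.57 (SE 0.15, edgeR adjusted p = 0.0405) without RT_ICI replicate 1. The estimates of the 3 catalytic genes thus did not share a sign, but that of Psmb7 was uncertain. It ran from -0.57 to 0.045 when each library was left out in turn.

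Over the 14 constitutive core genes together, 10 had a positive and 4 a negative log2 fold change, with a median of 0.13. Levels of different genes can be set side by side only per length. On that scale, CPM per kilobase of the longest annotated transcript averaged over all 6 libraries, the constitutive core genes lay between 30.1 for Psmb7 and 145 for Psmb4. The range holds genes of equal number in the particle, and the longest transcript need not be the one expressed.

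The immunoproteasome genes varied more among libraries of one group than any other tested class and none was called. Psmb8, encoding beta5i, had 73.5, 10.2 and 10.5 CPM in RT_ICI, against 41.3, 40.3 and 10.6 CPM in ICI. Psmb9, encoding beta1i, had 77.8, 13.1 and 14.6 CPM in RT_ICI, against 40.5, 72.6 and 13.2 CPM in ICI. Psmb10, encoding beta2i, had 92.6, 35.5 and 25.4 CPM in RT_ICI, against 55.0, 96.4 and 23.3 CPM in ICI. For all 3 genes RT_ICI replicate 1 and ICI replicates 1 and 2 were high, and RT_ICI replicates 2 and 4 and ICI replicate 3 were low. Each group thus held high and low libraries.

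**Figure D2:**
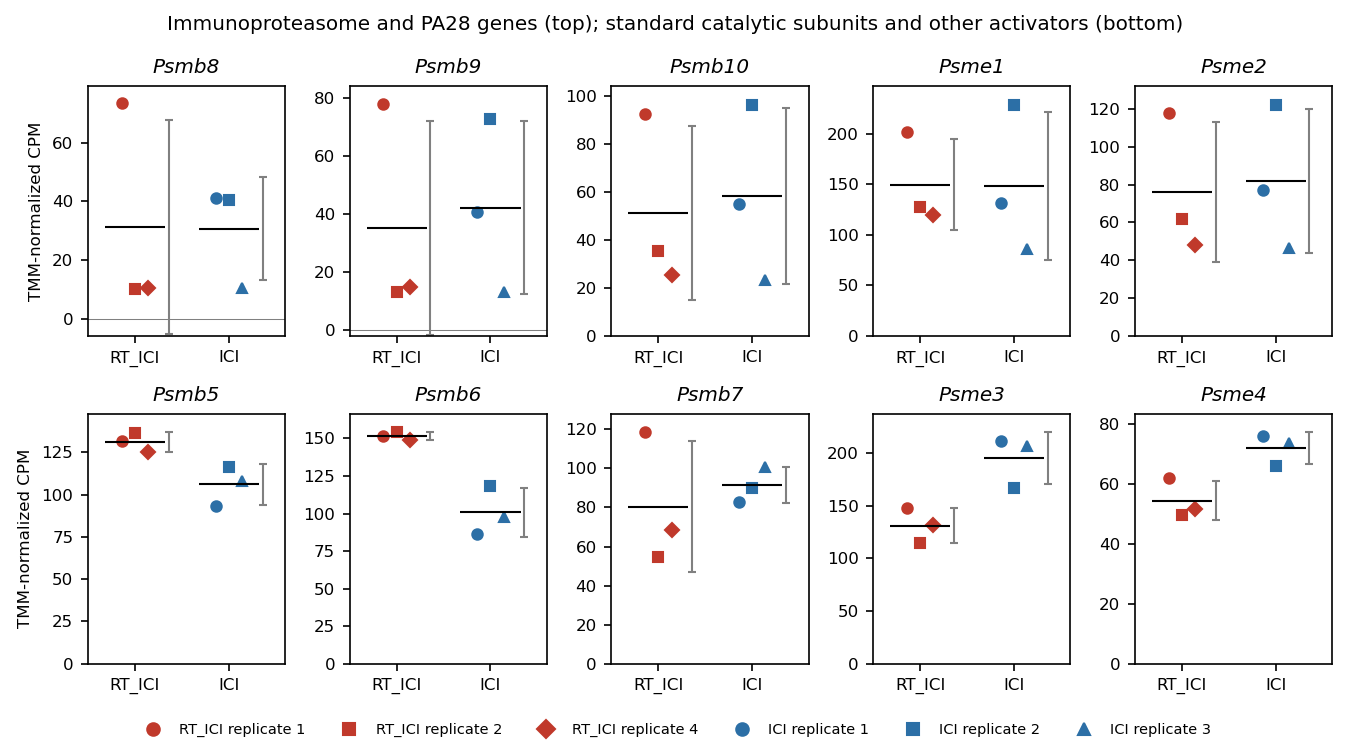
TMM-normalized CPM of immunoproteasome and PA28 genes (top) and of standard catalytic subunits and other activators (bottom) in each library, RT_ICI left of ICI; black lines are group means and grey bars 1 SD (n = 3), drawn below 0 where the SD exceeds the mean. In the top panels RT_ICI replicate 1 and ICI replicate 2 stand high and ICI replicate 3 low; Psmb6 is between 149.1 and 154.2 CPM in RT_ICI and between 86.4 and 118.5 CPM in ICI.

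The log2 fold changes of these genes had wide errors. Psmb8 was at 0.03 (SE 0.995, edgeR adjusted p = 0.987), Psmb9 at -0.26 (SE 0.96, adjusted p = 0.877 in edgeR) and Psmb10 at -0.19 (SE 0.69, adjusted p = 0.877 in edgeR). The highest library exceeded the lowest by 7.18-fold for Psmb8 within RT_ICI and by 3.90-fold within ICI. The median of this range over the 3 genes was 5.95 in RT_ICI and 4.13 in ICI, while over all tested genes it was 1.46 in RT_ICI and 1.34 in ICI. Over the 36 tested genes outside the immunoproteasome and PA28, the median was 1.35 in RT_ICI and 1.20 in ICI.

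The sign of these estimates depended on single libraries. RT_ICI replicate 1 exceeded the mean of RT_ICI replicates 2 and 4 by 7.09-fold for Psmb8, 5.63-fold for Psmb9 and 3.09-fold for Psmb10. Without it, the log2 fold changes were -1.56 for Psmb8 (SE 0.67, edgeR adjusted p = 0.169), -1.60 for Psmb9 (SE 0.79, edgeR adjusted p = 0.225) and -0.93 for Psmb10 (SE 0.66, edgeR adjusted p = 0.369). None was called without it either. Psmb9 and Psmb10, negative with all libraries, were positive without ICI replicate 2 (0.38 for both), RT_ICI replicate 2 (0.15 for Psmb9 and 0.04 for Psmb10) or RT_ICI replicate 4 (0.11 for Psmb9 and 0.14 for Psmb10). ICI replicate 3, at 10.6 CPM for Psmb8, lay within 1 CPM of RT_ICI replicates 2 and 4.

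The PA28 genes showed much the same order of libraries. Psme1, encoding PA28 alpha, had 201.3, 127.3 and 119.5 CPM in RT_ICI, against 131.2, 228.7 and 85.5 CPM in ICI. Psme2, encoding PA28 beta, had 118.2, 62.0 and 48.2 CPM in RT_ICI, against 77.1, 122.4 and 46.2 CPM in ICI. RT_ICI replicate 1 and ICI replicate 2 were the highest for both genes, and ICI replicate 3 was the lowest. The log2 fold changes were 0.01 for Psme1 (SE 0.38, edgeR adjusted p = 0.990) and -0.11 for Psme2 (SE 0.46, edgeR adjusted p = 0.896). Psme2b, a gene on chromosome 11 that is near-identical over 82.5% of the Psme2 transcript, held 36.2% as many counts as Psme2, so reads of the pair may have been divided between them.

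Averaged over Psmb8, Psmb9 and Psmb10, the deviation of log2 CPM from each gene's mean over the 6 libraries was 1.37, -0.90 and -0.99 in RT_ICI and 0.53, 1.07 and -1.08 in ICI. For Psme1 and Psme2 it was 0.60, -0.19 and -0.42 in RT_ICI and -0.01, 0.72 and -0.69 in ICI. The order of the libraries was nearly the same in both sets and did not follow the treatment. For the other 36 tested genes the mean deviation was 0.24, -0.16 and -0.18 in RT_ICI and -0.05, 0.04 and 0.11 in ICI, a far narrower span.

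**Figure D3:**
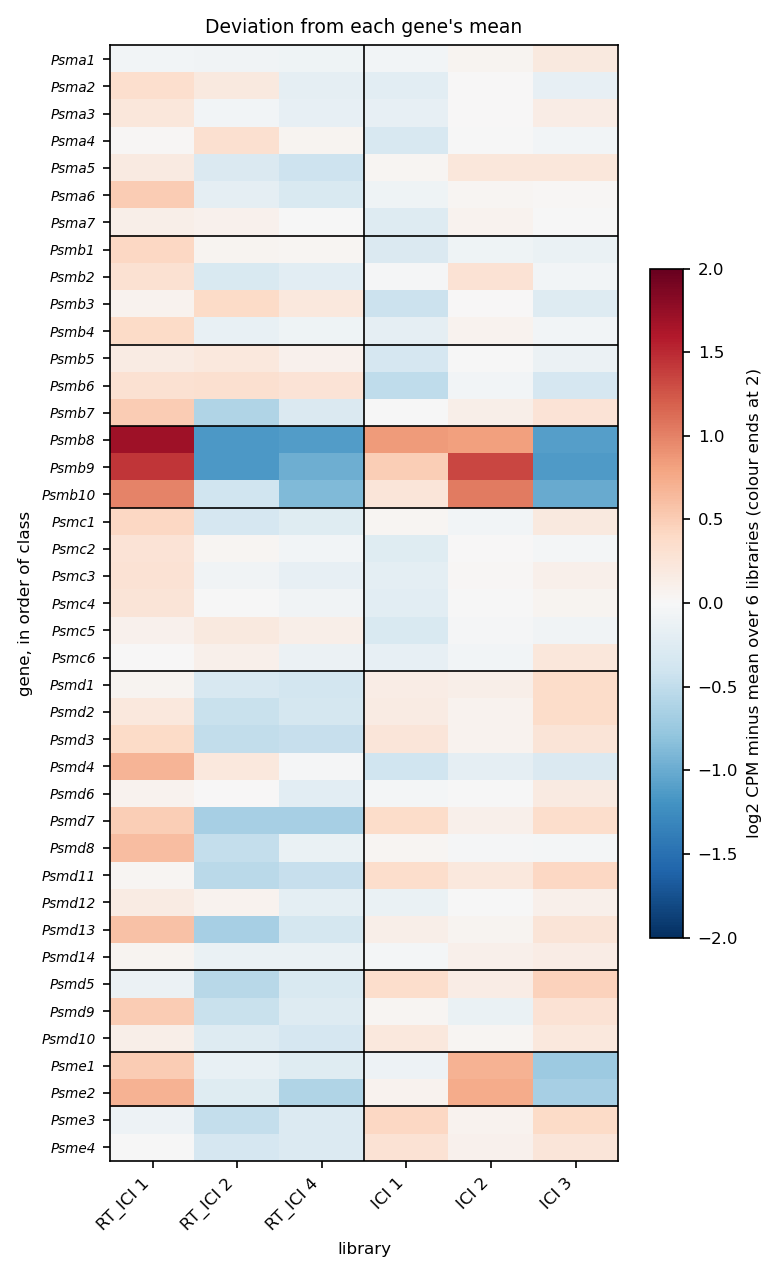
Log2 CPM of each tested proteasome gene in each library minus the gene's mean over the 6 libraries, RT_ICI libraries left of ICI libraries, genes in order of class with lines between classes; red is above and blue below the mean. The strongest colours are in the lines of Psmb8, Psmb9 and Psmb10, whose mean deviations run from -1.08 to 1.37, followed by Psme1 and Psme2; RT_ICI replicate 1 is above the mean of the other RT_ICI libraries for 37 of 41 genes.

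The balance between immunoproteasome and standard subunits was taken as a log2 ratio within each library, which does not depend on the scaling. Psmb8 over Psmb5 was -0.84, -3.74 and -3.58 in RT_ICI and -1.17, -1.53 and -3.36 in ICI. Psmb9 over Psmb6 was -0.96, -3.56 and -3.35 in RT_ICI and -1.09, -0.71 and -2.89 in ICI. Psmb10 over Psmb7 was -0.36, -0.62 and -1.43 in RT_ICI and -0.59, 0.10 and -2.11 in ICI. In linear terms the ratio of Psmb8 to Psmb5 counts was between 0.0748 and 0.558 in RT_ICI, and between 0.0977 and 0.443 in ICI. These ratios are not per length, and the longest transcript has 1907 bases for Psmb8 and 899 for Psmb5. They can be compared between libraries but do not give the relative number of transcripts.

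**Figure D4:**
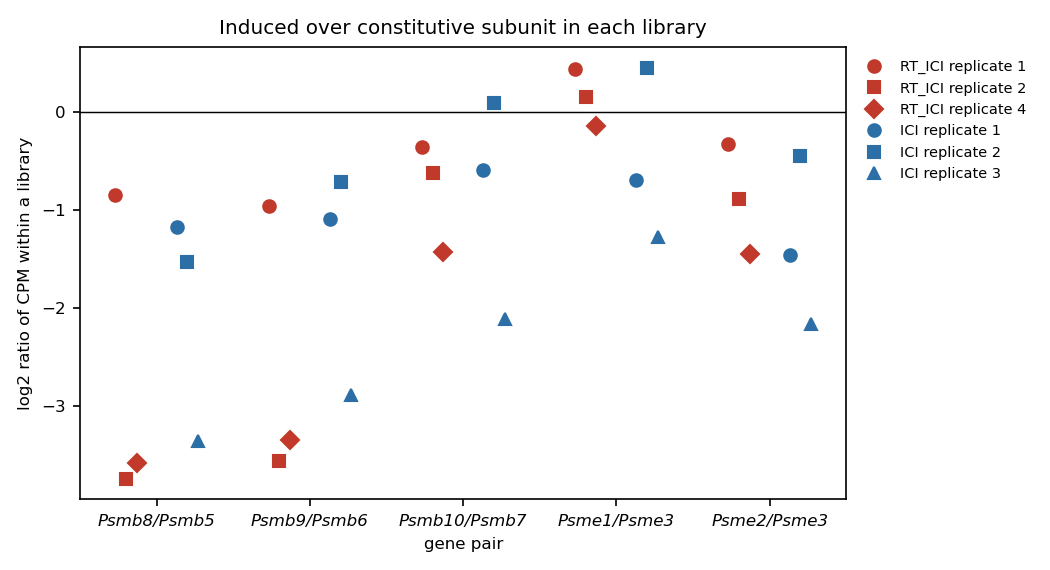
Log2 ratio of CPM of an interferon-inducible gene to its standard counterpart (or to the activator Psme3) within each library, one point a library, RT_ICI (red) left of ICI (blue). For Psmb8/Psmb5 and Psmb9/Psmb6, RT_ICI replicates 2 and 4 and ICI replicate 3 lie between -3.74 and -2.89 and the other 3 libraries between -1.53 and -0.71.

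No difference in these ratios was found, but so few libraries could not have given an exact permutation p under 0.05. The difference, RT_ICI minus ICI, was -0.70 for Psmb8/Psmb5, -1.06 for Psmb9/Psmb6 and 0.07 for Psmb10/Psmb7, with 2-sided exact permutation p-values of 0.7, 0.3 and 1.0 (n = 3 each). Psme1 and Psme2 were set over Psme3, which encodes PA28 gamma, the nuclear relative of the same family. The differences were 0.66 for Psme1/Psme3 and 0.47 for Psme2/Psme3, each with an exact permutation p of 0.4 (n = 3 each). Adjusted over these 5 ratios, the exact permutation p-values lay between 0.667 and 1.0, and with 3 against 3 libraries none could have been below 0.1. The direction for Psmb10/Psmb7 was the opposite after a correction for transcript length and GC content, at -0.33, and when RT_ICI replicate 1 (-0.15), RT_ICI replicate 2 (-0.02) or ICI replicate 3 (-0.55) was left out. Without RT_ICI replicate 1 the difference was -1.64 for Psmb8/Psmb5 and -1.89 for Psmb9/Psmb6 (exact permutation p = 0.2 each). Psme1/Psme3 was then at 0.51 and Psme2/Psme3 at 0.19 (exact permutation p = 0.6 and 0.8). Leaving out each library in turn, Psmb8/Psmb5 ran from -1.64 to -0.19 and Psmb9/Psmb6 from -1.89 to -0.59.

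The 6 ATPases of the regulatory particle, which unfold the substrate and feed it into the core (Psmc1 to Psmc6), held no called gene, with a median log2 fold change of 0.09. Psmc5 had 212.7, 230.6 and 217.8 CPM in RT_ICI, against 162.6, 198.8 and 191.7 CPM in ICI. The RT_ICI libraries were all above the ICI libraries, at a log2 fold change of 0.26 (SE 0.13, edgeR adjusted p = 0.216). Psmc1 lay lowest at -0.08 (SE 0.21, edgeR adjusted p = 0.820; 0.01 with upper-quartile scaling), with RT_ICI replicate 1 the highest of the 6 libraries at 204.4 CPM and RT_ICI replicate 2 the lowest at 121.8 CPM.

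The 11 non-ATPase subunits, which form the lid and the ubiquitin-binding part of the regulatory particle, leaned the other way. Of these, 8 had a negative and 3 a positive log2 fold change, with a median of -0.19, and none was called. Psmd11, a lid subunit, had 85.4, 57.2 and 60.0 CPM in RT_ICI, against 105.5, 95.8 and 110.0 CPM in ICI. All RT_ICI libraries lay below all ICI libraries, at a log2 fold change of -0.62 (SE 0.17), but the edgeR adjusted p was 0.0587. Psmd1, the large scaffold of the base, also did not overlap and was at -0.42 (SE 0.15, edgeR adjusted p = 0.111).

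Psmd4, a receptor for ubiquitin chains, had the highest log2 fold change of the class, and the other positive ones, Psmd8 and Psmd12, were at 0.08 and 0.03. It had 242.8, 176.4 and 150.5 CPM in RT_ICI, against 116.1, 134.5 and 124.2 CPM in ICI. The RT_ICI libraries were spread but all above the ICI libraries, at a log2 fold change of 0.60 (SE 0.19, edgeR adjusted p = 0.0751). DESeq2 called it higher, together with Psmb3 and Psmb6, and called Psmd5, Psmd11 and Psme3 lower. DESeq2 called 20.4% of all tested genes, against 9.18% for edgeR.

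Outside the immunoproteasome and PA28, RT_ICI replicate 1 mattered most for the non-ATPase subunits, by the shift of the class median. Their median was -0.19 with all libraries and -0.56 without it. The ATPases moved less, from 0.085 to 0.0017, and none of them was called without it. Psmd7, a lid subunit that pairs with the deubiquitinase Psmd14, had 101.2, 45.7 and 45.6 CPM in RT_ICI, against 92.8, 77.7 and 92.1 CPM in ICI. RT_ICI replicates 2 and 4 were at about the same level, well below every ICI library, and RT_ICI replicate 1 was above them all. The log2 fold change was -0.45 (SE 0.31, edgeR adjusted p = 0.357) with all libraries and -0.94 (SE 0.13, edgeR adjusted p = 0.0121) without RT_ICI replicate 1. Psmd13 and Psmd3 showed the same pattern of libraries, and RT_ICI replicate 1 exceeded the mean of the other RT_ICI libraries by 2.14-fold and 1.82-fold for these genes.

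The assembly chaperones Psmd5, Psmd9 and Psmd10 escort the base of the regulatory particle while it forms and are absent from the finished particle. Psmd5, the gene called lower, had 36.9, 27.2 and 32.3 CPM in RT_ICI, against 51.0, 44.3 and 54.6 CPM in ICI. The highest RT_ICI library was below the lowest ICI library. The means were 32.1 ± 4.83 CPM in RT_ICI and 50.0 ± 5.22 CPM in ICI (SD, n = 3 each). The log2 fold change was -0.64 (SE 0.15, edgeR adjusted p = 0.0438), a level 1.56-fold higher in ICI. Psmd5 stayed called without RT_ICI replicate 1 (edgeR adjusted p = 0.0209). It was not called by edgeR when ICI replicate 1 (adjusted p = 0.161), ICI replicate 2 (0.0603), ICI replicate 3 (0.131), RT_ICI replicate 2 (0.127) or RT_ICI replicate 4 (0.111) was left out, with log2 fold changes between -0.75 and -0.52. Of all tested genes, the fit without ICI replicate 2 called 3.02%, and the other 4 called at most 0.549%.

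The other chaperones were not called. Psmd10, also known as gankyrin, was at -0.30 (SE 0.17, edgeR adjusted p = 0.254), and Psmd9 at -0.08 (SE 0.26, edgeR adjusted p = 0.863; 0.02 with upper-quartile scaling). Per kilobase, the mean levels of the chaperone genes over the 6 libraries lay between 9.33 and 11.8 CPM per kilobase, and among the other tested genes outside the immunoproteasome only the activator gene Psme4, at 9.75, was as low.

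The activators other than PA28 alpha and beta were both lower in every RT_ICI library than in any ICI library, short of the threshold. Psme3 had 147.5, 114.4 and 131.2 CPM in RT_ICI, against 211.7, 166.4 and 206.3 CPM in ICI. Its log2 fold change was -0.57 (SE 0.15, edgeR adjusted p = 0.0555). Psme4, which encodes the activator PA200, known for roles in histone degradation, had 62.0, 49.7 and 51.7 CPM in RT_ICI, against 76.2, 66.2 and 73.9 CPM in ICI. Its log2 fold change was -0.40 (SE 0.13, edgeR adjusted p = 0.0833). Without RT_ICI replicate 1 both were called lower, Psme3 at -0.67 (edgeR adjusted p = 0.0304) and Psme4 at -0.51 (edgeR adjusted p = 0.0310). With a correction for transcript length and GC content added to that fit, Psme3 was still called and Psme4 was not.

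The tissue-specific subunits were barely detected and were not tested. Psma8, the alpha subunit of the testis proteasome, had 11, 2 and 2 counts in RT_ICI and 0, 3 and 5 counts in ICI. Psmb11, the catalytic subunit of the thymus proteasome, had 41, 6 and 2 counts in RT_ICI and 4, 3 and 7 counts in ICI. RT_ICI replicate 1 had the highest count for both.

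Leaving out RT_ICI replicate 1 changed the count of called genes in one direction. Psmb6 was then still the gene called higher, and 11 of the 41 genes were called lower, 26.8%, against 8.8% of the 17551 genes tested in that fit (8.91% were higher). Besides Psmd5, these were Psma5, Psmb7, Psmd1, Psmd2, Psmd3, Psmd7, Psmd11, Psmd13, Psme3 and Psme4, of which 6 are non-ATPase subunits. RT_ICI is represented by 2 libraries in that fit. With the correction for length and GC content added, 10 genes were called lower, 24.4%, against 7.34% of all genes, and none higher, against 6.73%. Psmb7 and Psme4 were not among these genes, and Psmb2 was. Leaving out any other library gave at most 1 called gene in the module, in fits that called between 0% and 3.02% of all tested genes.

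RT_ICI replicate 1 lay above the mean of the other RT_ICI libraries for 37 of the 41 genes. The ratio ran from 0.85 for Psmb3 to 7.09 for Psmb8 and was close to 1 for Psmb5 and Psmb6. This library also held the largest share of mitochondrial counts. Mitochondrially encoded genes and their nuclear copies took 21.8%, 18.3% and 16.6% of counts in RT_ICI, against 6.52%, 7.39% and 6.45% in ICI. Markers of other cells were also highest in it within RT_ICI. The 3 endothelial markers summed to 125, 46.8 and 24.3 CPM in RT_ICI, against 115, 43.2 and 117 CPM in ICI. The 6 fibroblast markers summed to 488, 305 and 244 CPM in RT_ICI, against 205, 74.7 and 499 CPM in ICI. None of these markers was called or at 0 in all libraries. The part of these differences between libraries in the proteasome results was not tested beyond the fits given here.

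The total share of counts in the 43 genes was 0.476%, 0.402% and 0.380% in RT_ICI, against 0.464%, 0.501% and 0.508% in ICI. It averaged 0.419% ± 0.050 in RT_ICI and 0.491% ± 0.024 in ICI (SD, n = 3 each, exact permutation p = 0.2, 2-sided). With mitochondrial genes and their nuclear copies left out of the total, the share averaged 0.519% ± 0.079 in RT_ICI and 0.527% ± 0.026 in ICI (SD, n = 3 each, exact permutation p = 0.9, 2-sided). The difference between the means was thus nearly gone once the mitochondrial counts were set aside, but this depended on RT_ICI replicate 1. The libraries were at 0.608%, 0.493% and 0.456% in RT_ICI, against 0.496%, 0.541% and 0.543% in ICI. RT_ICI replicate 1 was the highest of all, and RT_ICI replicates 2 and 4 were below every ICI library. A comparison without RT_ICI replicate 1 was not made for this share. For the share of all counts, the 95% Wilson interval reached from 0.377% to 0.383% in RT_ICI replicate 4, the shallowest library. Such intervals cover counting error only.

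Transcript length moved with the results. Across the 41 genes the Spearman correlation between log2 fold change and the length of the longest transcript was -0.39, and across the 36 genes outside the immunoproteasome and PA28 it was -0.43. These are descriptions across genes measured in the same libraries. The same direction was seen over all tested genes, whose median log2 fold change was 0.37 in the decile of the shortest transcripts and -0.26 in that of the longest. Psmb6 has a longest transcript of 966 bases and Psmd5 one of 4397 bases. After a correction for length and GC content in each library, Psmb6 was at 0.34 (edgeR adjusted p = 0.144) and Psmd5 at -0.48 (edgeR adjusted p = 0.0893). No proteasome gene was called after it, while 3.61% of all tested genes were. The median over the 41 genes was then -0.20, against -0.037 over all tested genes. Of the 41 log2 fold changes, 32 were negative after it and 22 before it. For the 11 non-ATPase subunits of the regulatory particle the median after it was -0.37, with 10 negative.

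**Figure D5:**
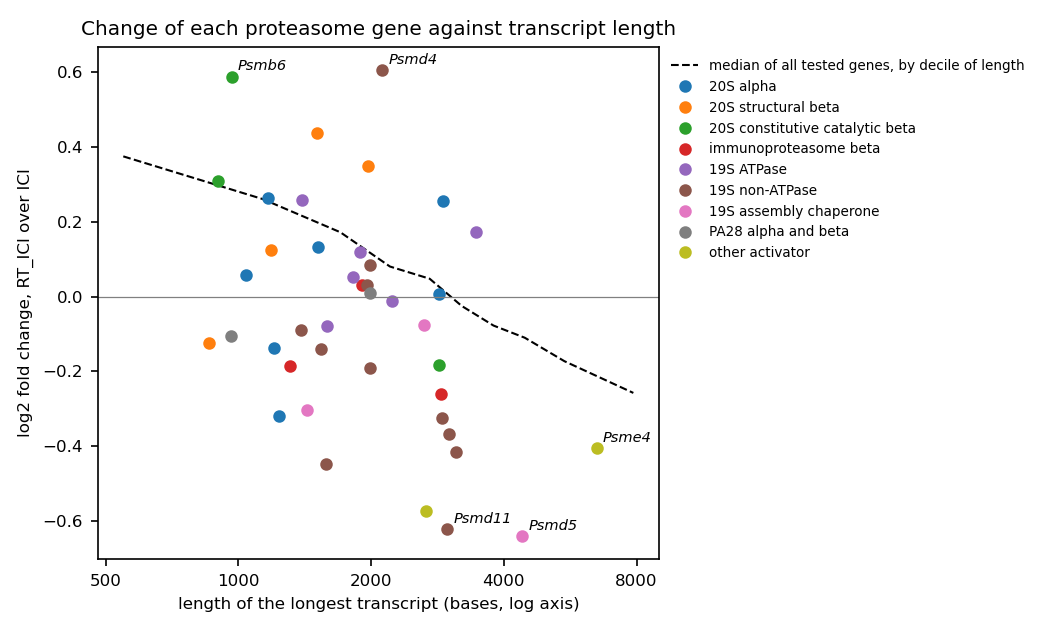
Log2 fold change, RT_ICI over ICI, of each tested proteasome gene against the length of its longest transcript (log axis), coloured by class; the dashed line joins the medians of all tested genes by decile of length. The dashed line falls from 0.37 to -0.26, with Psmb6 above it at 966 bases and Psmd5 below it at 4397 bases.

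Genes that work with the proteasome were read from lists of 51 tested genes. Of 5 factors that assemble the core, none was called. Pomp, the maturation factor of the core, had 156.2, 164.9 and 137.0 CPM in RT_ICI, against 109.7, 129.4 and 115.3 CPM in ICI, without overlap, at a log2 fold change of 0.37 (SE 0.13, edgeR adjusted p = 0.105). Psmg4, a chaperone of the alpha ring, had 29.2, 33.4 and 29.2 CPM in RT_ICI, against 19.3, 27.5 and 18.3 CPM in ICI, also without overlap, at 0.50 (SE 0.18, edgeR adjusted p = 0.113). Psmg1, Psmg2 and Psmg3 lay between -0.01 and 0.15. Of 12 proteasome-associated factors, none was called. Sem1, the small lid subunit, was at 0.43 (edgeR adjusted p = 0.117), the deubiquitinase Usp14 at -0.31 (0.157), the ubiquitin receptor Adrm1 at 0.10 (0.661) and its partner Uchl5 at -0.03 (0.934).

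Among 9 regulators of proteasome genes, Ddi2 was called lower and none higher, and 8 of 9 log2 fold changes were negative. Ddi2 is the protease that releases active Nfe2l1, the factor that raises proteasome genes when proteasome activity is short. It had 42.9, 44.7 and 42.1 CPM in RT_ICI, against 72.1, 55.8 and 63.6 CPM in ICI, at a log2 fold change of -0.56 (SE 0.13, edgeR adjusted p = 0.0404). Nfe2l1 itself was at -0.52 (edgeR adjusted p = 0.112), Nfe2l2 at -0.36 (0.152) and Ngly1, which removes sugars from Nfe2l1, at 0.09 (0.725).

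Irf1, an interferon-responsive factor that binds the promoters of immunoproteasome genes, overlapped between the groups and was not called. It had 49.1, 50.1 and 23.5 CPM in RT_ICI, against 55.8, 113.5 and 29.3 CPM in ICI, at a log2 fold change of -0.69 (SE 0.54, edgeR adjusted p = 0.413). ICI replicate 3 was the lowest ICI library for Irf1 as for Psmb8, while RT_ICI replicate 1 was high for Psmb8 without being high for Irf1.

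Of 11 genes of class I antigen presentation, Canx, a chaperone of the endoplasmic reticulum, was called lower. It had 386.6, 277.4 and 388.1 CPM in RT_ICI, against 687.9, 615.1 and 776.9 CPM in ICI (log2 fold change -0.98, SE 0.18, edgeR adjusted p = 0.0292). Tap1, a subunit of the peptide transporter, had 154.9, 34.5 and 27.7 CPM in RT_ICI, against 108.1, 133.0 and 45.2 CPM in ICI (log2 fold change -0.40, SE 0.80, edgeR adjusted p = 0.763). RT_ICI replicate 1, ICI replicate 1 and ICI replicate 2 were high for Tap1 and the other 3 libraries low, as for Psmb8, Psmb9 and Psmb10. Tap2, Tapbp and Tapbpl were not called, with log2 fold changes of -0.49, -1.12 and -0.68. Tap1 and Psmb9 lie head to head on chromosome 17 and their exons overlap over 5.79% of those of Psmb9 on opposite strands. The sources used here do not say whether the counting used strand.

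The 14 leukocyte markers summed to 51.5, 17.8 and 16.2 CPM in RT_ICI, against 103, 44.4 and 34.9 CPM in ICI. As for Psmb8, this sum was highest in replicate 1 within RT_ICI and lowest in replicate 3 within ICI. RT_ICI replicate 1 was, however, below ICI replicate 1 here and above it for Psmb8. The markers did not all share this order. Cd8a did, at 2.09, 0.36 and 0.28 CPM in RT_ICI, against 11.6, 4.58 and 0.59 CPM in ICI. Adgre1 (9.81 CPM) and Csf1r (12.1 CPM) did not, and were highest in ICI replicate 3. Of the 14, 11 were tested and none was called, and 2 of the 11, Itgam and Cd79a, had a positive log2 fold change. Ncr1 was at 0 in every library but ICI replicate 3, where it was at 0.042 CPM, and Ptprc, the marker of all leukocytes, was between 2.14 and 8.02 CPM in RT_ICI and between 5.71 and 26.6 CPM in ICI. The part of leukocytes in the levels of Psmb8, Psmb9 and Psmb10 was not tested.

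Of 14 ubiquitin genes and shuttle factors, 1 was called in each direction. Rps27a, which encodes a fusion of ubiquitin and a ribosomal protein, had 868.1, 865.5 and 789.0 CPM in RT_ICI, against 526.7, 519.8 and 515.1 CPM in ICI (log2 fold change 0.69, SE 0.13, edgeR adjusted p = 0.0292). Ubqln1, a shuttle that carries ubiquitinated proteins to the proteasome, had 86.4, 60.9 and 68.4 CPM in RT_ICI, against 128.8, 110.5 and 120.6 CPM in ICI (log2 fold change -0.74, SE 0.16, edgeR adjusted p = 0.0360). Ubb, a gene of ubiquitin repeats, was at 0.32 (edgeR adjusted p = 0.264), and Uba1, the ubiquitin-activating enzyme, was at -0.44 (edgeR adjusted p = 0.123). Over the 51 genes of the lists, 1 was called higher and 3 lower with all libraries, 7.84% against 9.18% of all tested genes. Without RT_ICI replicate 1 there were 1 higher and 11 lower, and the lower ones were 21.6%, against 8.8% of all genes. None of these 4 genes was called when ICI replicate 1, ICI replicate 3, RT_ICI replicate 2 or RT_ICI replicate 4 was left out, and without ICI replicate 2 only Canx was. These fits called at most 3.02% of all tested genes.

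Some members resemble or overlap other genes, and how reads were assigned between them is unknown. Near-identical processed pseudogenes held 52.1% as many counts as Psma3 (Gm13835), 8.26% and 5.43% as many as Psma5 (Gm12989 and Gm8394) and 3.49% as many as Psmb5 (Gm3375). Nek6 overlaps 11.8% of the exon bases of Psmb7 on the opposite strand and Sirt3 10.1% of those of Psmd13. The values of these genes may be affected. Psmb6 had 1 near-identical pseudogene, with 0.0487% as many counts, and no such copy or overlap was found for Psmd5.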

How the data were processed

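Raw counts of reads per gene were deposited by the authors as 1 table, and every value here was computed from those counts. The submitters' processing notes name the aligner HISAT2 and the builds GRCm38 and mm10. The sources used here give no counting tool, annotation release, strand setting or version. Separate animals are not stated for the libraries, and p-values therefore reflect only how much these libraries differ, which may be technical in part. No pair agreed within sampling noise (chi-square per degree of freedom at least 36.3).

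The proteasome genes, their classes, the gene lists, the markers and the rule for named genes were chosen with earlier results of these data known. The named genes were every called member, the immunoproteasome and PA28 genes with their counterparts, the extremes of each class, every called gene of the other lists and up to 4 more of each list. Beyond these, Psmb1, Psmb4, Psmd1, Psmd3, Psmd7, Psmd8, Psmd10, Psmd12, Psmd13 and Psmg4 were described after their values were seen. Some genes named by the rule are not described.

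Genes were filtered with filterByExpr (16924 kept) and scaled by TMM. Groups were compared with edgeR 4.0.16 (robust quasi-likelihood, R 4.3.3) over all genes, with Benjamini-Hochberg adjustment and a threshold of 0.05. The script was checked on simulated data. Each standard error (SE) of a log2 fold change came from the F statistic. Ratios and shares of counts were compared by exact permutation tests (SciPy 1.17.1), which cannot go below p = 0.1 here. Alternatives were other scalings and filters, DESeq2 1.42.0, limma-voom (limma 3.58.1), the replicate number as a block, added pseudogene counts, leaving out each library, and a spline correction for transcript length and GC content (4 degrees of freedom). That correction without RT_ICI replicate 1 was added after seeing the data. Lengths, GC and overlaps came from GENCODE M21 (GRCm38), near-identical stretches from blastn 2.17.0 (at least 200 bases at 95% identity), and promoter sequences from RefSeq (GRCm38.p6). Intervals and floors cover counting error only.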

Additional observations from a re-analysis of the deposited data

How the results depend on the processing

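With all libraries, 1 proteasome gene was called higher and 1 lower. Called higher were 2 without a filter, 3 by DESeq2 and 2 at an adjusted p under 0.1, and 0 with the length and GC correction. Called lower were 0 with upper-quartile scaling, 3 without a filter, 3 by DESeq2, 4 at an adjusted p under 0.1, and 0 with the length and GC correction. That correction without RT_ICI replicate 1 gave 0 higher and 10 lower. With the replicate number as a block, 0 were higher and 0 lower, with or without the correction. ICI replicate 3 and RT_ICI replicate 4 had no same-numbered library in the other group, so under the block they did not inform the comparison. Of all tested genes, the block called 3.81%, or 1.52% with the correction. DESeq2 called 20.4%, upper-quartile scaling 9.12% and no filter 7.58%, and 21.5% were called at an adjusted p under 0.1. The correction called 3.61%, or 14.1% without RT_ICI replicate 1. Deviations of same-numbered libraries correlated at 0.35 and 0.09 in 2 pairs. Differently numbered libraries were not compared in this way, so these values do not decide whether the numbers pair the samples. The main fit did not pair them. Of the other pathway genes, 1 was higher and 3 were lower; DESeq2 gave 2 and 5, no filter 6 lower, the block 0 higher, and the block with the correction 0 and 0. Leaving out each library in turn gave 0 to 1 proteasome genes higher and 0 to 11 lower, and 0 to 1 and 0 to 11 for the other pathway genes. The same fits called between 0% and 17.7% of all tested genes, the highest without RT_ICI replicate 1.

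With the correction, the structural beta median was 0.056 and the constitutive catalytic median -0.076 (-0.0091 with the block added). With the correction and without RT_ICI replicate 1, the medians were -0.19 (20S alpha), -0.059 (structural beta), -0.029 (constitutive catalytic), -1.69 (immunoproteasome), -0.071 (19S ATPase), -0.51 (19S non-ATPase) and -0.35 (all tested). Leaving out each library, they ran from -0.11 to 0.17 (20S alpha), 0.076 to 0.31 (structural beta), 0.21 to 0.37 (constitutive catalytic), -1.56 to 0.38 (immunoproteasome), -0.0067 to 0.16 (ATPase), -0.56 to -0.10 (non-ATPase), -0.45 to -0.22 (chaperones), -0.42 to 0.37 (PA28), -0.59 to -0.40 (other activators) and -0.26 to 0.11 (all tested). The Psmb10/Psmb7 difference was -0.33 with the correction and ran from -0.55 to 0.55 over the libraries left out.

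Signs turned for genes that were not called. Psmb5 was at -0.076 with the correction, -0.0091 with the block added and -0.029 with the correction and without RT_ICI replicate 1. Psmb8 was at -0.058 without a filter, -0.38 by limma-voom, -0.56 with the block, -0.19 with the correction, -0.74 with both, and -1.69 with the correction and without RT_ICI replicate 1. Psme1 in the same settings, other than limma-voom, was at -0.054, -0.11, -0.26, -0.37 and -0.48. Psmc1 was at 0.012 with upper-quartile scaling and 0.045 with the block, and Psmd9 at 0.016 and 0.088, and 0.013 with block and correction. Leaving out each library, ranges crossing 0 were -0.33 to 0.0019 (Psmb2), -0.57 to 0.045 (Psmb7), -1.56 to 0.47 (Psmb8), -1.60 to 0.38 (Psmb9), -0.93 to 0.38 (Psmb10), -0.35 to 0.069 (Psmc1), -0.43 to 0.12 (Psmd9), -0.28 to 0.45 (Psme1) and -0.57 to 0.29 (Psme2). The causes were not tested.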
